A study of Mus musculus with 3 samples.

Results

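The regions described here were stretches of mouse 3′UTR that were covered by Ago2 HITS‐clip peaks of at least 2 of 3 libraries and that held a Pumilio response element. A stretch had to be at least 8 nt long and to lie, on the same strand, in the longest 3′UTR of a protein-coding gene. The element was searched as the letters TGTANATA on the sense strand, with any base (N) at position 5. Members were thus chosen by their peak coverage in these libraries, and the criteria were met by 1318 of 30364 covered stretches, or 4.34%. They held 1447 of the 7215 elements in all 3′UTRs and lay in 1124 of the 4872 genes with an element, out of 21028 genes with a 3′UTR. The comparison group was the 469 elements of the same genes that were not wholly inside such a stretch. The libraries came from 3 samples of N2A cells, a mouse neuroblastoma cell line, under basal conditions with no further treatment. Crosslinking used a dose of 400 mJ/cm2 of ultraviolet light and later ones of 200 mJ/cm2. All belonged to 1 group of 1 cell line, so no condition was compared, and no input or control immunoprecipitation was analysed here.

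Argonaute 2 (Ago2) is the protein that carries miRNAs to their target mRNAs, and HITS‐clip maps where it can be crosslinked to RNA. The Pumilio proteins of mammals bind the element through a curved array of repeats that reads the RNA base by base. They recruit the CCR4-NOT deadenylase, which shortens poly(A) tails, and lower the stability and translation of the bound mRNA. In neurons they are known for controlling mRNAs of synapses, excitability and cell division. Pumilio was not immunoprecipitated in these samples. The values below are therefore Ago2 peaks over a sequence, and whether Pumilio was bound there was not measured.

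The 12 elements in the shortest parts shared by all 3 libraries are shown first, as examples of elements that peaks of every library held. A short shared part means that peaks of different libraries were offset from each other, and does not place a site more closely. Windows of 30 nt are given 5′ to 3′ in GRCm38, with the element in capitals.
Luc7l3, chr11:94290688-94290717, minus strand: ttggttataaaTGTATATAttgctgtgtat
Ube2z, chr11:96048535-96048564, minus strand: ttatatctgacTGTACATAaatgaagtttt
Wwtr1, chr3:57455751-57455780, minus strand: atccagtatgtTGTACATAcaggaactgtg
Ppp1r9a, chr6:5161894-5161923, plus strand: ttgaaaatgaaTGTATATAttggaaatgtc
Kif11, chr19:37420634-37420663, plus strand: agtatttttctTGTATATAattaaatacca
Vps33b, chr7:80291539-80291568, plus strand: ttgaatattatTGTAAATAaagcctctgtt
Zfp830, chr11:82765829-82765858, plus strand: tatgacctcgaTGTATATAtattttcaagc
Appl1, chr14:26922483-26922512, minus strand: gtgtgtgtgtgTGTATATAtacacacacat
Mtmr6, chr14:60302182-60302211, plus strand: tcaacttcacaTGTATATAtgtgtttacat
Heca, chr10:17899145-17899174, minus strand: agggaagccagTGTAAATActtaaagaatg
Dgkd, chr1:87944404-87944433, plus strand: ttgtattgttaTGTACATAgtctgcatcag
Rhot1, chr11:80266086-80266115, plus strand: agggaatatttTGTAAATAatgtacatatt

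The 12 windows carried T at position 5 in 6 cases, C in 3, A in 3 and G in 0. Luc7l3, a splicing-associated protein, had the shortest part common to all libraries, 16 nt, inside a covered stretch of 148 nt. Its peaks were 84, 80 and 129 nt wide in replicates 1, 2 and 3, and their midpoints lay 32 nt 3′, 34 nt 5′ and 3.5 nt 3′ of the element. Ube2z, a ubiquitin-conjugating enzyme, had a shared part of 28 nt and peaks of 88, 96 and 90 nt. The midpoints in replicates 1 and 2 lay 27 and 31 nt 3′ of its element, and that in replicate 3 lay 34 nt 5′. Wwtr1, the transcriptional coactivator TAZ of the Hippo pathway, had 30 nt in common, and Ppp1r9a, the actin-binding protein neurabin, had 31 nt. Kif11, the kinesin of the bipolar spindle, had 33 nt, with midpoints 24.5 and 30.5 nt 5′ in replicates 1 and 2 and 27.5 nt 3′ in replicate 3. Vps33b, a vesicle-tethering protein, and Zfp830, a zinc finger protein, had 35 nt each. The Vps33b element ended 22 nt before the 3′ end of its 3′UTR and ran into the polyadenylation signal AATAAA. Appl1, an endosomal adaptor, also had 35 nt, and its element stood at the end of a run of GT dinucleotides. The last of these were Mtmr6, a phosphoinositide phosphatase, with 40 nt, Heca with 42 nt, Dgkd, a diacylglycerol kinase, with 44 nt and Rhot1, the mitochondrial GTPase Miro1, with 45 nt. The Rhot1 window held a second element, printed in lower case after the first.

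**Figure D1:**
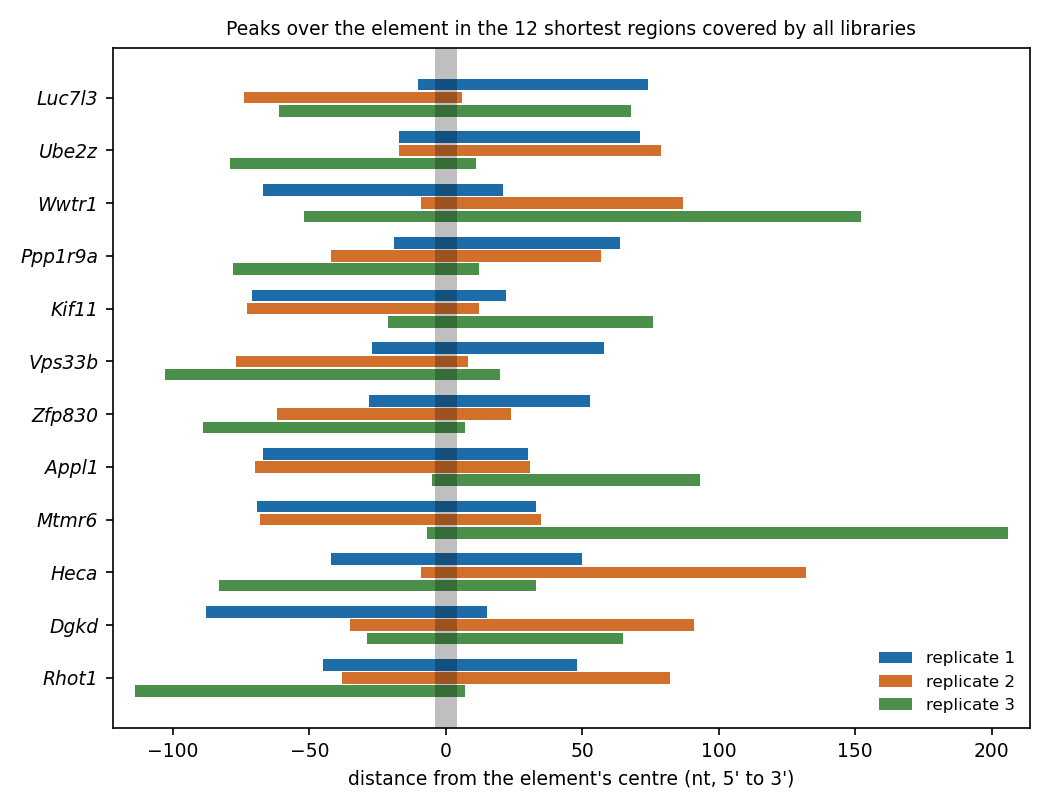
Extent of the deposited peak over the element in each library (coloured bars) against the distance in nt from the element's centre, 5′ to 3′, for the 12 shortest parts shared by all libraries; the grey band is the element. In each of the 12 genes at least 1 library's bar is centred 5′ and at least 1 is centred 3′ of the band, and the widths ran from 80 to 213 nt.

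The share of elements covered was compared with that of all other positions. Of all 8-nt windows in 3′UTRs that held an element, 11.4% were covered in at least 2 libraries, against 20.1% of the elements. Of 43020 windows that differed from the element at 1 of its 7 fixed positions, 15.9% were covered. On the opposite strand 38 elements were covered, or 0.527%. Counted per library, peaks on the opposite strand covered a mean of 2.94% of all these windows and 3.11% of the elements. These values are the measure by which the regions were chosen and are given as a description, without a test.

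The libraries contributed unequally. The deposited table gave 711377, 498071 and 829936 peaks for replicates 1, 2 and 3, with median widths of 83, 84 and 85 nt, and no read counts, so that sequencing depth is unknown. Replicate 1 covered 6.89% of all windows, replicate 2 19.1% and replicate 3 18.2%. Accordingly, 546 of the 1447 covered elements were whole within peaks of replicate 1, 1358 within replicate 2 and 1324 within replicate 3. The pair of replicates 2 and 3 alone accounted for 900 elements (62.2%), all 3 libraries for 335 (23.2%), replicates 1 and 2 for 122 and replicates 1 and 3 for 89. The last element was whole in replicate 2 and lay in a stretch that replicates 1 and 3 covered in part. All 3 libraries together covered 1.99% of windows and 4.64% of elements.

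Because genes differed in how much of their 3′UTR was covered, the number of covered elements in each library was divided by the number expected had each 3′UTR's coverage fallen evenly on its windows. This ratio was 1.41, 1.42 and 1.31 in replicates 1, 2 and 3, or 1.38 ± 0.0608 (SD, n = 3). For the single-base variants it was 1.25, 1.19 and 1.20, or 1.21 ± 0.0321. Divided by each other within a library, the ratios were 1.13, 1.19 and 1.09, or 1.14 ± 0.0515. The element was thus above its variants in each library, by less than it was above all windows. Of the 21 variants, 19 lay below the element in every library. The exceptions were A8T, which has T in place of the last A and had a mean ratio of 1.37, and A6G, which lay above the element in replicate 1 at 1.45 and had a mean of 1.25. The lowest variant was T3C at 1.06. In these names the element's base comes first, then its position counted from 1 at the 5′ end, then the base of the variant.

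The forms of the element differed among themselves. With A at position 5 the ratio was 1.56, 1.49 and 1.43 in the 3 libraries, with a mean of 1.49 ± 0.0651. With C it was 1.38 ± 0.0764, with T 1.32 ± 0.0814 and with G 1.14 ± 0.0473. The A form was above all 21 variants in every library. The G form, at 1.10, 1.19 and 1.12, stood below the mean of the variants, and its range did not overlap that of the other 3 forms.

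**Figure D2:**
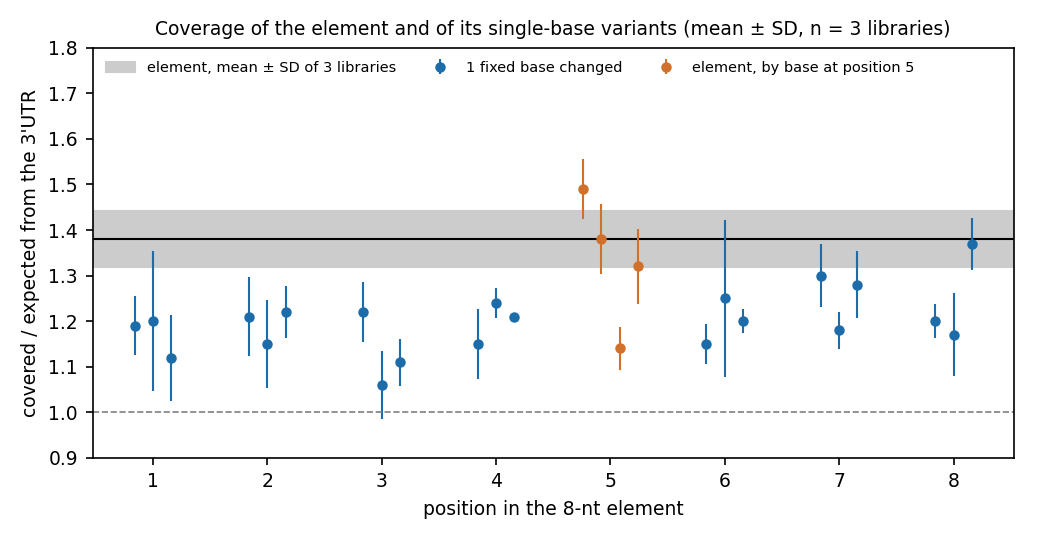
Covered windows over the number expected from the coverage of the same 3′UTR (vertical axis, mean ± SD of 3 libraries) for each single-base change of the element, by position in the element; the grey band is the element and orange points are its forms by the base at position 5. The form with the highest value at position 5, A, stands at 1.49 and the lowest, G, at 1.14, while the changed forms run from 1.06 to 1.37.

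Peak coverage also moved with base composition. Among 28896 8-mers with at least 200 windows, the median ratio for coverage in at least 2 libraries rose from 0.602 for 8-mers with 1 A or T to 1.03 with 5, 1.17 with 6, 1.28 with 7 and 1.37 with 8. The 5 8-mers with no A or T had 0.738. The A and T forms of the element have 7 A or T, and the C and G forms 6. Within these classes the A form, at 1.75, had the highest ratio of 2048 8-mers, and the C form, at 1.58, ranked 62 of 5853. The T form, at 1.42, ranked 318 of 2048, and the G form, at 1.26, ranked 1609 of 5853. Among all 8-mers the A form ranked 8.

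Coverage was highest over a plateau from about 20 nt 5′ to about 30 nt 3′ of the element's centre and fell off beyond it. At the element's centre it was 1.38, 1.39 and 1.29 times the share of the same 3′UTRs in replicates 1, 2 and 3. At 30 nt 3′ it was 1.38, 1.39 and 1.28 times, and at 30 nt 5′ 1.28, 1.36 and 1.23 times. At 100 nt 3′ it was 1.12, 1.11 and 1.13 times, and at 300 nt 3′ 1.03, 0.978 and 0.966 times. Around the single-base variants the same measure was 1.24, 1.18 and 1.19 at the centre. Among covered elements, the midpoint of the peak lay a median of 3, 0.5 and 5 nt 3′ of the element's centre in replicates 1, 2 and 3. It was within 20 nt of the centre for 51.1%, 59.2% and 50% of them. The peaks over these elements had median widths of 96, 111 and 106 nt, and peaks of up to 85 nt made up 22.7%, 8.92% and 9.67% of them, against 71.6%, 61.4% and 52.8% of all peaks. Only peaks that held an element whole were counted, once for each element, which favours wide peaks and offsets centred near 0. Where several peaks of a library held the same element, here and throughout, the peak with its midpoint nearest to the element was taken. This choice also draws offsets towards 0. Offsets and widths are therefore given as a description.

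**Figure D3:**
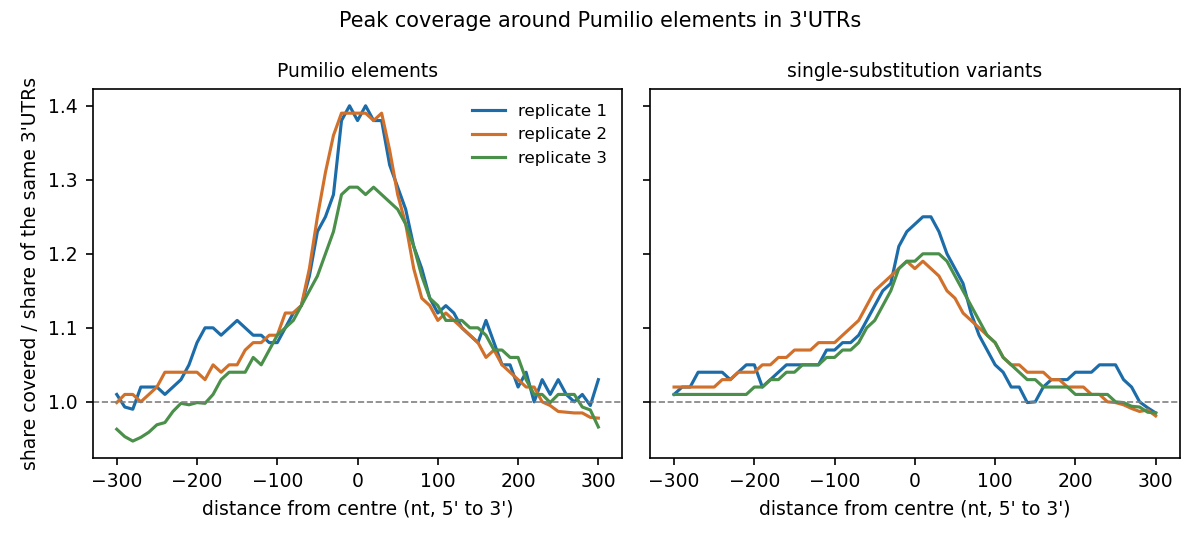
Share of positions covered by peaks, divided by the covered share of the same 3′UTRs (vertical axis), against distance in nt from the centre of all Pumilio elements (left) and of their single-base variants (right), 1 line per library. At 0 the lines stand at 1.29 to 1.39 for the elements and 1.18 to 1.24 for the variants. Their highest points lie between 20 nt 5′ and 30 nt 3′ of 0, and at 300 nt they lie near 1.

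The covered stretches themselves had a median length of 136 nt (quartiles 91 and 232, range 19 to 2923), against 89 nt (quartiles 55 and 128) for 7154 other covered stretches of the same 3′UTRs. A longer stretch has more room for an element, so this difference follows in part from the rule. Their median A or T content was 66.3%, against 62.1%, to which the required element, itself mostly A and T, contributes. A single element was held by 1205 stretches, 2 by 100 and 3 or more by 13. Of the genes, 966 had 1 such stretch, 127 had 2 and 31 had 3 or more. In 576 stretches some part was covered by all 3 libraries. At the limit of the rule, the shortest stretches were 19 nt in Lrig2, 21 nt in Dnajb14 and 24 nt in Tcf4 and Dennd4a. Just outside it, 14 elements had 7 of their 8 nt covered in at least 2 libraries, among them those of Sec16b, Prkca, Vcan and Prkcd. Of all elements, 4231 were whole in no library and 1538 in exactly 1.

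The stretch with the most elements, 5, belonged to Slc38a2, a transporter of neutral amino acids, and that of Tbx1, a T-box transcription factor, held 4. Both are shown because they differ in how the elements are arranged. Capitals mark the element each window is centred on.
Slc38a2, element 1, chr15:96687870-96687899, minus strand: ttatgataaacTGTACATAtattgtccata
Slc38a2, element 2, chr15:96687845-96687874, minus strand: ccatatgtattTGTAAATAgattgtatata
Slc38a2, element 3, chr15:96687834-96687863, minus strand: tgtaaatagatTGTATATActgttggaatt
Slc38a2, element 4, chr15:96687806-96687835, minus strand: ttgggttcaagTGTATATAttcccctaagt
Slc38a2, element 5, chr15:96687518-96687547, minus strand: gactccttgtaTGTATATAgtgtaaatgtc
Tbx1, element 1, chr16:18581773-18581802, minus strand: cctgcgggcggTGTAGATAcgtgtagatat
Tbx1, element 2, chr16:18581763-18581792, minus strand: gtgtagatacgTGTAGATAtgtgtagatac
Tbx1, element 3, chr16:18581753-18581782, minus strand: gtgtagatatgTGTAGATActgtagatact
Tbx1, element 4, chr16:18581744-18581773, minus strand: tgtgtagatacTGTAGATActgcaccggcg

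The Slc38a2 stretch was 653 nt long, and the first 4 elements started 2238, 2263, 2274 and 2302 nt after the stop codon, with the fifth at 2590 nt. In replicate 1 the peak nearest to each element was 81 to 89 nt wide, with its midpoint 3.5 nt 5′ to 18 nt 3′ of the element. These were 4 peaks, of which those over the first 4 elements overlapped and held several elements each, and replicates 2 and 3 each had 1 peak of 686 or 693 nt over all 5. The Tbx1 elements were all of the G form and formed a short tandem array, starting 201, 211, 221 and 230 nt after the stop codon. They shared 1 peak of 111 nt in replicate 2 and 1 of 102 nt in replicate 3, and had none in replicate 1. Elements that share a peak are not independent of each other. Of the other stretches named for their number of elements, Rbm25, an RNA-binding splicing factor, and Phactr1, a regulator of actin and protein phosphatase 1, had 3 each, covered in replicates 2 and 3. Mtf2, a subunit of Polycomb complexes, also had 3. Its first element was covered in replicates 1 and 2 and the other two in replicates 2 and 3.

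Features that the rule did not use were then compared between covered and other elements within the same 3′UTR, so that elements of 1 gene were compared with each other. The comparison drew on 436 covered and 469 other elements in 331 genes that had both, by conditional logistic regression stratified by 3′UTR, with 7 features tested and p-values adjusted by Benjamini-Hochberg over them. The unit of this test was the element and not the sample. Neighbouring elements can share a peak, and the p-values take no account of this.

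A at position 5 was found in 38.5% of the covered and 31.3% of the other elements, and the odds of coverage were 1.54 times those of other bases (95% interval 1.15 to 2.06, adjusted p = 0.0188, n = 436 covered and 469 other elements). When each base was set against A in 1 fit, an addition made after the data were seen, the odds ratio was 0.345 for G (0.195 to 0.609, adjusted p = 0.000737 over 3 comparisons, n = 25 covered and 51 other elements with G). It was 0.686 for T (0.494 to 0.952, adjusted p = 0.0365, n = 148 and 176) and 0.732 for C (0.497 to 1.08, adjusted p = 0.115, n = 95 and 95). The call for A did not hold without replicate 2, where the odds ratio was 0.971 (adjusted p = 0.886, n = 202 covered elements), without replicate 3 at 1.11 (adjusted p = 0.696, n = 225), or with coverage in all 3 libraries at 1.07 (adjusted p = 0.772, n = 175). It held without replicate 1, the only setting that left a replicate out and kept both replicates 2 and 3. The odds ratio was 1.37 with peaks of 86 to 200 nt (adjusted p = 0.112, n = 408) and 1.37 without strata (adjusted p = 0.0554, n = 436), and neither passed. With soft-masked elements left out, those within repeats or low-complexity sequence, it was 1.35 (adjusted p = 0.219, n = 195).

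The flanks, 50 nt on each side, were 65.3% A or T in covered and 64.0% in other elements, with an odds ratio of 1.27 per 10 percentage points (1.06 to 1.53, adjusted p = 0.0188, n = 436 and 469). Leaving out replicate 2 or replicate 3 kept the odds ratio, at 1.29 and 1.34, but not the call, with adjusted p-values of 0.123 and 0.144. The call was also lost with peaks of 86 to 200 nt, with trimmed peaks, with all 3 libraries required, without strata and without elements that run into AATAAA, where the odds ratio was 1.18 to 1.45 and the adjusted p 0.0554 to 0.448 (n = 175 to 436 covered elements). Covered elements were nearer to the stop codon, at a geometric mean of 1070 nt against 1490 nt, with an odds ratio of 0.88 per doubling of the distance (0.801 to 0.967, adjusted p = 0.0188, n = 436 and 469). They were farther from the 3′ end, at 1070 nt against 1000 nt, with an odds ratio of 1.12 per doubling (1.03 to 1.21, adjusted p = 0.0188, n = 436 and 469). Neither call on distance held when any 1 replicate was left out or when only peaks of 86 to 200 nt were kept. With those peaks the odds ratios were 0.982 and 1.03.

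No test was passed by the remaining features. Another element within 100 nt was present for 21.3% of covered and 19.4% of other elements, with an odds ratio of 1.03 (0.609 to 1.75, adjusted p = 0.908, n = 436 and 469). A match to the seed, bases 2 to 8, of any of 12 miRNA families within 50 nt was present for 12.6% and 9.81%, with an odds ratio of 1.38 (0.90 to 2.11, adjusted p = 0.165, n = 436 and 469). With soft-masked elements left out, an alternative chosen after seeing the data, this odds ratio was 2.43 (adjusted p = 0.0245, n = 195 and 200). That was the highest of 14 alternatives, and the lowest was 0.737, with trimmed peaks. Without replicate 3 the odds ratio for a seed match was 0.946. The AU-rich pentamer ATTTA was present within 50 nt for 25.5% and 20.3%, with an odds ratio of 1.32 (0.948 to 1.83, adjusted p = 0.14, n = 436 and 469). The intervals of these features include odds ratios below 1 as well as well above 1. The families were let-7, miR-9, miR-15/16, miR-17, miR-19, miR-21a-5p, miR-23, miR-25/92, miR-30, miR-142a-5p, miR-155 and that of miR-221 and miR-222, and miR-124-3p was not used here. Counted over all 1447 covered and 469 other elements, matches to miR-30 were the most frequent among the covered ones, at 2.07% against 1.28%. Of the 12 families, 9 had the higher share in covered and 3 in other elements. For miR-23 the shares were 1.66% and 0.64%, and let-7 had 8 matches among covered and 0 among other elements. For miR-155 the shares were 0.622% and 0.64%, for miR-21a-5p 0.484% and 0.64%, and for miR-221 and miR-222 1.04% and 1.71%. No single family was tested.

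**Figure D4:**
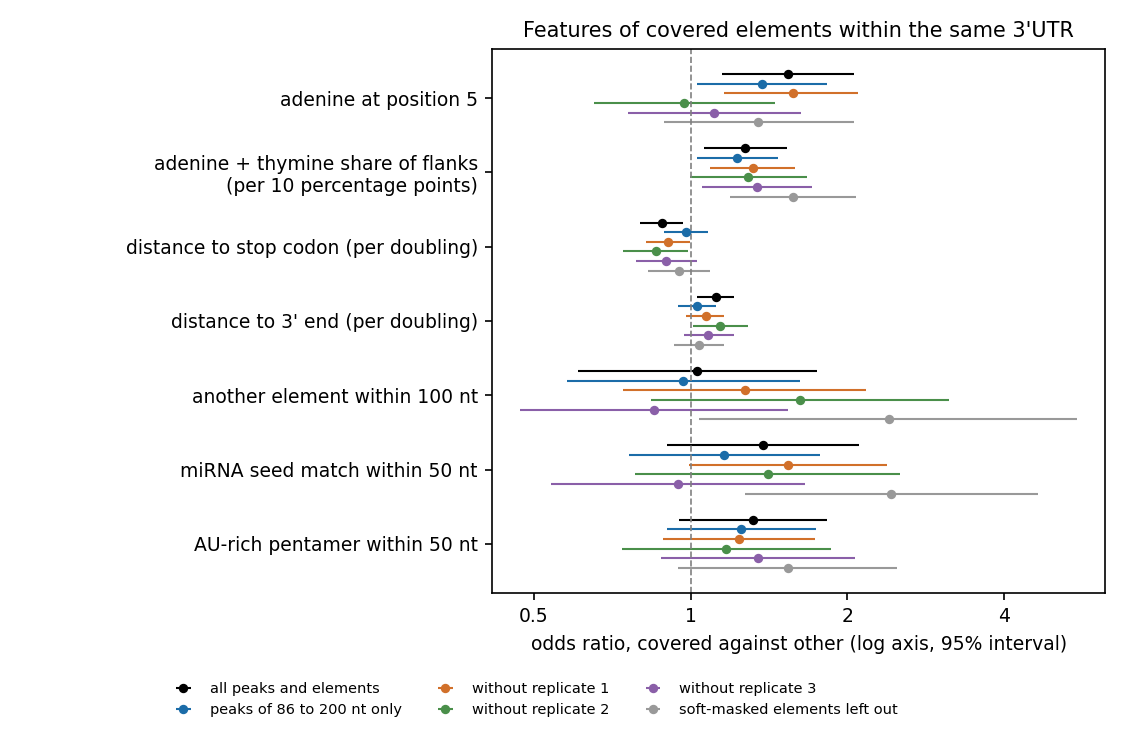
Odds ratios of coverage for 7 features of the element (points, log axis; bars are 95% intervals) from a fit stratified by 3′UTR, with all data in black and 5 alternatives in colour. The value for A at position 5 moved from 1.54 to 0.971 without replicate 2, and the interval for another element within 100 nt was the widest with soft-masked elements left out.

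Along the 3′UTR, elements in the first 0.1 of the length were covered in 23.7% of cases and those between 0.7 and 0.8 of the length in 15.6%. In the last stretch of 0.1, which held 1276 elements, 21.5% were covered. The position of covered elements had a median of 0.539 of the length, and that of all elements 0.574. Some elements run into the polyadenylation signal AATAAA, with which they share their last letters. This applied to 91 covered elements (6.29%), 25 other elements of the same genes (5.33%) and 503 of all elements (6.97%). Soft-masked sequence held 33.1% of covered, 38.2% of other and 38.6% of all elements.

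**Figure D5:**
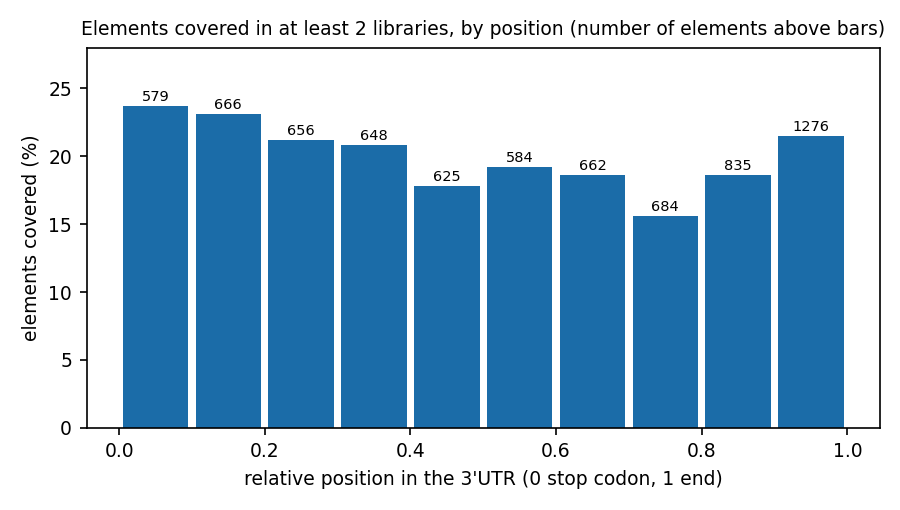
Percentage of all Pumilio elements covered in at least 2 libraries (bars, axis from 0) by relative position in the 3′UTR from stop codon to end, in steps of 0.1, with the number of elements above each bar. The bars run from 15.6% to 23.7%, with the lowest between 0.7 and 0.8 of the length.

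The genes that held these regions were examined by lists of known function. Of all 4872 genes with an element, 23.1% held a covered one, and of the 2464 whose 3′UTR had a covered stretch anywhere the share was 45.6%. Lists were chosen with earlier results of these data known, and their counts are a description. The abundance of these mRNAs was not measured in these samples. As a check of the labelled cell type, 8 of 12 neuroblastoma and neuron markers had a covered 3′UTR stretch, among them Phox2a, Hand2 and Mycn. This was so for 1 of 6 myeloid markers (Ptprc), 0 of 6 hepatocyte and 0 of 6 skeletal muscle markers, and for 7275 of all 21028 genes.

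The Pumilio and Nanos proteins came first, followed by mRNAs described as Pumilio targets. Of the first list, Pum2 and Nanos1 held a covered element, and so did 4 of 8 of the described targets. Their windows are shown because these mRNAs encode the proteins that bind the element or are known for being bound.
Pum2, element 1, chr12:8750154-8750183, plus strand: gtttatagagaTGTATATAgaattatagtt
Pum2, element 2, chr12:8750407-8750436, plus strand: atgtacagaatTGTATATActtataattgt
Nanos1, chr19:60757710-60757739, plus strand: taatcatatcgTGTACATAtttggaaacgg
Cdkn1b, element 1, chr6:134924472-134924501, plus strand: tgtactacctgTGTATATAgtttttatctt
Cdkn1b, element 2, chr6:134925226-134925255, plus strand: aagtgtgcctgTGTATATAactctgtaaag
E2f3, chr13:29907017-29907046, minus strand: gtagctctgtcTGTAAATAgaatcgcagta
Pdgfra, chr5:75197852-75197881, plus strand: atacatcgataTGTATATAtctgttgctat
Map3k1, chr13:111746767-111746796, minus strand: ggtactcgaatTGTAAATAacgtctactgc

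Pum2, a Pumilio protein itself, had a pair of elements in 1 stretch of 560 nt. The first was covered in replicates 2 and 3, where the peaks nearest to it were 81 and 194 nt wide. The second was covered in all libraries, with nearest peaks of 108, 372 and 394 nt. Those of 372 and 394 nt held the first element as well. Nanos1, an RNA-binding partner of Pumilio that helps recruit the deadenylase, had its element in a stretch of 44 nt under peaks of 90 and 86 nt of replicates 2 and 3. Cdkn1b, which encodes the cell cycle inhibitor p27, had 2 covered elements. The first was covered in replicates 2 and 3 and the second, 269 nt before the 3′ end, in all libraries by peaks of 139, 446 and 318 nt. E2f3, a transcription factor of the S phase, had 1 of its 3 elements covered, by peaks of 85 and 104 nt in replicates 2 and 3 centred 15.5 and 12 nt 5′ of it. Pdgfra, a receptor tyrosine kinase, had 1 element covered in all libraries, but its replicate 1 peak was 997 nt wide. Map3k1, a kinase upstream of JNK, was covered in replicates 1 and 2. Of the targets with no covered element, Eif4e and Mff had a covered stretch elsewhere in the 3′UTR, and Atxn1 and Scn1a had none.

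Of the CCR4-NOT deadenylase and BTG/TOB genes, 3 of 7 with an element held a covered one. Cnot6l, a catalytic deadenylase subunit, was covered in all libraries by peaks of 121, 143 and 262 nt whose midpoints lay within 3 nt of the element. Cnot7, another catalytic subunit, had 2 covered elements, 48 nt after the stop codon and 24 nt before the 3′ end, both in replicates 2 and 3. Cnot2, a scaffold subunit, was covered in replicates 1 and 2. Of the miRNA effectors, 1 of 4 held one, Tnrc6b, which links Ago proteins to the deadenylase, under peaks of 92 and 93 nt in replicates 2 and 3. Its other 3 elements were in no library, and Ago3, Ago4 and Dicer1 held no covered element.

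Of cell cycle and mitosis genes, 7 of 11 with an element held a covered one, and all 11 had a covered stretch somewhere. Cdk1, the mitotic kinase, was covered in all libraries by peaks of 108, 171 and 181 nt, as was E2f2, a transcription factor of the same family as E2f3, by peaks of 120, 134 and 88 nt. The others were covered in replicates 2 and 3. Ccne2, cyclin E2, had 2 elements in separate stretches, with replicate 2 midpoints 1.5 nt 5′ and 0.5 nt 3′ of them. Rbl1, the pocket protein p107, and Kif18a, a kinesin of chromosome alignment, also had 2 each. Mad2l1, of the spindle checkpoint, and Esco2, which acetylates cohesin, had 1 each. Ccna2, Ccnb1, Stag2 and Wee1 had an element and a covered stretch elsewhere but no covered element.

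Of the MAP kinase and RAS genes, 7 of 10 held a covered element. Spred1, which restrains RAS signalling with neurofibromin, had 3, of which the first 2, in 1 stretch of 587 nt, were covered in all libraries. Nf1, neurofibromin itself, a GTPase-activating protein for RAS, had 2 in all libraries under peaks of 106 to 113 nt. Dusp6, a phosphatase of ERK, had its 1190-nt 3′UTR covered throughout, with 1 element in replicates 1 and 2 and 1 in all libraries. Nras had 1 element in all libraries, with a replicate 1 peak of 2474 nt. Spred2, another inhibitor of RAS signalling, and Map3k2, a kinase upstream of ERK5, had 1 each in replicates 2 and 3. Braf and Sos1 had an element and a covered stretch but no covered element.

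Of the neuronal RNA-binding proteins, 8 of 15 held a covered element. Nova1, a neuronal splicing regulator, was covered in all libraries by peaks of 101, 132 and 225 nt, and the replicate 1 midpoint lay 0.5 nt from its element. Nova2 had 2, of which 1 was covered in all libraries, with a replicate 1 peak of 2170 nt. Elavl2 and Elavl4, of the Hu proteins that bind AU-rich sequence, had 2 and 1. Qk, the splicing factor quaking, and Cpeb2, which binds cytoplasmic polyadenylation elements, had 1 each in all libraries. Fmr1, which encodes the fragile X protein, and Msi2, of the Musashi family, had 1 each in replicates 2 and 3.

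Of 12 genes of the neuronal cytoskeleton and axon guidance with an element, 1 held a covered one, and of 13 ion channels and receptors 0. That 1 was Map1b, a microtubule-associated protein, covered in all libraries by peaks of 91, 166 and 185 nt. The ion channel list had 37 elements, of which 6 were in Grin2b, a subunit of the NMDA receptor, and 5 each in Grin2a and Scn2a, a sodium channel. Of its 13 genes, 7 had a stretch covered in at least 2 libraries anywhere in the 3′UTR, none of them holding a whole element. For the cytoskeleton list this count was 5 of 12, Map1b included, and for all genes with an element 2464 of 4872. No difference between lists was tested. How much of those 3′UTRs was covered, and how abundant the mRNAs were in N2A cells, was not tested.

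Over all lists, 46 elements in 34 genes were covered, 17 of them in all libraries, and 106 elements of listed genes were not. Of those 106, 71 were in no library and 35 in 1. The covered ones had A at position 5 in 17 cases, T in 14, C in 9 and G in 6. In replicate 2, which covered 45 of the 46, the midpoint was within 20 nt of the element for 26.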

How the data were processed

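The authors called peaks per sample and deposited 1 table with the position, strand, score and sample of each. The deposited score was 60 for nearly all peaks, has no stated unit and was not used. The submitters' processing notes name FastQC, cutadapt, STAR and mm10. The peak caller and its threshold are not given in the sources used here. Starts were read as counted from 0. The values point to a padding of 30 nt at either end, which no source states, and peaks were used as deposited. There were 0 further columns with values of a sample.

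The 3′UTRs, without the stop codon, came from GENCODE mouse M21, sequence from RefSeq GRCm38.p6, and mature miRNA sequences from RefSeq. Positions in the 3′UTR covered by at least 2 libraries were joined into stretches. An element counted as covered when it lay wholly in a stretch, 1 element spanning a splice junction was not used, and 14 elements in 3′UTRs of several genes were counted once. Features were tested with clogit of the R package survival 3.8.3 (two-sided, exact likelihood). The procedure was also run on simulated data, in which the coverage of each element was drawn on its own, so that shared peaks were not simulated. R 4.3.3, Python 3.11.15, numpy 2.4.6, pandas 2.3.3 and matplotlib 3.10.9 were used.

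The regions and gene lists were chosen with earlier results of these data known. Named are the listed genes with a covered element, of which some are not reported here, the 12 elements in the shortest parts shared by all libraries, the 5 stretches with the most elements and those nearest to the length limit. Alternatives covered the width of peaks, padding, the number of libraries, each replicate left out, the overlap required, the G form, strand, strata, neighbouring elements and wider flanks. Nothing states that the samples were separate cultures, so spread between them may be technical.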

Additional observations from a re-analysis of the deposited data

How the results depend on the processing

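The number of regions, 1318, and the share of elements covered, 20.1%, fell to 640 and 9.40% with peaks trimmed by 30 nt on each side and to 314 and 4.64% with all 3 libraries required. They ranged from 397 to 1133 and from 5.88% to 17.1% when 1 replicate was left out, lowest without replicate 2, and were 37 and 0.527% on the opposite strand. The ratio of covered to expected elements was 1.47 with peaks of 86 to 200 nt and 1.60 with trimmed peaks, and 1.36 to 1.42 when 1 replicate was left out. Over the variants it was 1.27 with trimmed peaks and otherwise 1.11 to 1.16. On the opposite strand the ratio to expected was 0.944, 0.99 and 1.05 in replicates 1, 2 and 3.

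The odds ratios of the 7 features were less stable. In all, 74 of 125 alternatives over 11 results left the result unchanged. Unchanged meant within its spread, for the number of regions within a factor of 1.5, and for odds ratios the same direction and side of the threshold. Features that did not pass were thus unchanged when they again did not pass. Of those that passed, A at position 5 kept its call in 7 of 13 alternatives and the A or T share in 7 of 14. The distance to the stop codon kept its call in 5 of 13 and that to the 3′ end in 4 of 13. Without 1 replicate the odds ratio was 0.971 to 1.57 for A at position 5, 1.29 to 1.34 for the A or T share of the flanks, 0.857 to 0.906 for the distance to the stop codon and 1.07 to 1.14 for the distance to the 3′ end. It was 0.852 to 1.62 for another element, 0.946 to 1.54 for a seed match and 1.17 to 1.35 for ATTTA. The lowest value for A came without replicate 2, and those for another element and a seed match without replicate 3. In the same order of the first 4 features, these odds ratios no longer passed the test with peaks of 86 to 200 nt (1.37, 1.23, 0.982, 1.03) and with all 3 libraries (1.07, 1.45, 0.894, 1.07). With trimmed peaks the A or T share (1.19) and the distance to the stop codon (0.958) no longer passed, and the distance to the 3′ end turned to 0.992. With all features in 1 fit the distances lost the call (0.934, 1.11). Without strata this applied to A (1.37), the A or T share (1.18) and the distance to the 3′ end (1.02), and without elements that run into AATAAA to the A or T share (1.21). With soft-masked elements left out it applied to A (1.35) and the distances (0.95, 1.04). A seed match then passed at 2.43, and another element rose to 2.4 without passing. Another element turned to 0.968 with peaks of 86 to 200 nt, 0.905 without the G form, 0.932 with elements within 100 nt counted once and 0.941 without elements that run into AATAAA, and a seed match to 0.737 with trimmed peaks. The alternatives that left out libraries or elements had fewer elements to compare. Beyond that, the cause was not tested. Leaving out soft-masked elements and those that run into AATAAA was added after the data were seen.

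No paired analysis was possible because all 3 samples belong to 1 group. The deposited table holds no read counts, which leaves the depth unknown, and a site is located no more closely than the width of a peak.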
